A study of Mus musculus with 48 samples.

Results

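The DNA replication and S phase genes of mouse islet cells were followed as a set of 38, chosen by symbol from the 42713 genes of the deposited count tables, and each symbol matched 1 row. The set holds 8 genes of origin licensing, 4 of helicase activation, 5 of DNA polymerases, 6 of the sliding clamp, its loader and single-strand binding, 2 of lagging-strand completion, 5 of nucleotide supply, 4 of chromatin and histone RNA, and 4 regulators of S phase entry. RNA came from glucagon-producing α cells and insulin-producing β cells sorted by fluorescence from islets of male mice aged 6 to 8 weeks, under a series title on circadian clocks and the regeneration of β cells. All animals, controls included, carried the reporters ProGcg-Venus, RIP-Cherry and PER2::Luc together with the transgenes Insulin-rtTA and TET-DTA, so that doxycycline switches on diphtheria toxin A in cells with an active insulin promoter. Ablation was induced with 300 mg of doxycycline (DOX) given in the water, to which 2% sucrose was added, and controls drank water with 2% sucrose alone. The light cycle was 12 h on and 12 h off, feeding was restricted to the night from 10 days before the experiment, and some of the animals had inverted light and feeding cycles for 2 weeks beforehand. Cells were collected at zeitgeber times (ZT, hours after lights on) 0, 4, 8, 12, 16 and 20, with 2 libraries for each cell type, treatment and time, which gives 24 groups, 12 libraries per condition and 48 in all. No group received the drug without the toxin transgenes, so drug and ablation cannot be told apart, and the DOX β cells are those that remained and were sorted. Whether the paired libraries of a group came from separate animals or pools is not given in the sources used here, so p-values measure the spread between these libraries, which may be partly technical.

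Before S phase, origins of replication are licensed when CDC6 and CDT1 help load the ring-shaped MCM2-7 helicase onto DNA. Kinases then let CDC45, the GINS complex and MCM10 turn that ring into an active helicase, and the primase and polymerases copy the strands with the PCNA clamp and its RFC loader. E2F transcription factors and cyclin E drive the transition from G1, and most genes of this machinery are transcribed as cells commit to S phase. Adult β cells are known to divide rarely, and these transcripts are usually low in islets.

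E2F factors and the NF-Y complex are known to bind promoters of many such genes, and promoter windows are shown because the members moved together in β cells. RefSeq windows (250 bases before and 50 after a start, 300 in all, build GRCm38.p6) were matched by symbol for 32 of the 38 genes. The letters TTTCCCGC, TTTGGCGC, TTTGCCGC or TTTCGCGC, searched on both strands, stood in the windows of 13 of these 32 genes (40.6%), compared with 2.6% of the 27025 genes with a window and 2.26% of 32851 windows of that length. The NF-Y letters CCAAT stood in 19 of 32 (59.4%, against 41.1% of all genes) and the E-box letters CACGTG in 5 (15.6%, against 8.09%). In the windows of Mcm5 (chr8:75109259-75109508, plus strand) and Mcm6 (chr1:128359706-128359955, minus strand) the TTTGGCGC and TTTCGCGC letters overlap each other on opposite strands, and Mcm6 holds a second TTTGGCGC. Pola1 (chrX:93632156-93632405, minus strand) holds 1 E2F match and a CCAAT box, Rrm2 (chr12:24708004-24708253, plus strand) has only a CCAAT box, and Rfc5 (chr5:117389024-117389273, minus strand), which did not pass the test in β cells, has neither. Neither was found for Dut, which also did not pass, nor for Ccne1, E2f1, Fen1, Pola2, Rfc4, Tk1 and Tyms, which were higher in DOX β cells. The 250 bases before the start are printed 5′ to 3′ in the sense of the gene, with E2F letters and CCAAT boxes of either strand in capitals.
Mcm5: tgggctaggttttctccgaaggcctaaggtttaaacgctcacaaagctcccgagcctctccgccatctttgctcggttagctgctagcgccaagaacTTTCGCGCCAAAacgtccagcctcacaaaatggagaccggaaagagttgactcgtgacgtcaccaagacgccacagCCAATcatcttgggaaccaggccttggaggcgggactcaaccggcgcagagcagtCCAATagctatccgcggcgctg
Mcm6: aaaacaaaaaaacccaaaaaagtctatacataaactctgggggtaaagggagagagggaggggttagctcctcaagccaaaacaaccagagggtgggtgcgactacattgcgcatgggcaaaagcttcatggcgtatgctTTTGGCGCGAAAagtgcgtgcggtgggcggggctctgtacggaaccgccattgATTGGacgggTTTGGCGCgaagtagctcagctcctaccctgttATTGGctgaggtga
Pola1: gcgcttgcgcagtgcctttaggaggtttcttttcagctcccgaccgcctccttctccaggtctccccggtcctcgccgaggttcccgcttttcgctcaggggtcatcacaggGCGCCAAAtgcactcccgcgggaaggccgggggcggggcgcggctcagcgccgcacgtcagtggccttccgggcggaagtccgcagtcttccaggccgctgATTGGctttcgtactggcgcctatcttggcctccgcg
Rrm2: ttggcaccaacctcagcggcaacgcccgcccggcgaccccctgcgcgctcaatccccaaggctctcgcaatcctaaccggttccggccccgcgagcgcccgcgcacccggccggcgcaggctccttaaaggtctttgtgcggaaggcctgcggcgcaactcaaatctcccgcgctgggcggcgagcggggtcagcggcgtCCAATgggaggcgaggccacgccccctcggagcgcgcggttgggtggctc
Rfc5: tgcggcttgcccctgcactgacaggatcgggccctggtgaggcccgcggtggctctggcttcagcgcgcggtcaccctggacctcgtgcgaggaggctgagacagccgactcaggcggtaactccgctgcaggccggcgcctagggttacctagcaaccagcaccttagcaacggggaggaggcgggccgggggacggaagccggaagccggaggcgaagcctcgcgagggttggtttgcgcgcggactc
A letter match is a description of these windows and not a binding site.

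Summed estimated counts were 16.1 to 28.6 M (mega-counts) in 20 libraries sequenced in an earlier run and 37.4 to 69.95 M in 28 of a later one. At ZT4, 8, 12, 16 and 20 the first replicate belongs to the earlier run and the second to the later, which also has both libraries of each ZT0 group. The β libraries had 56500 to 108000 CPM (counts per M counts of a library, on scaled library sizes) of Ins1 in controls and 45860 to 99390 CPM in DOX mice, against 40.8 to 384 CPM of Gcg over the β libraries of both treatments. In α libraries the α identity genes summed to 251500 to 397300 CPM in controls and 230400 to 463500 CPM in DOX mice. Markers of δ and PP cells, Ppy and Pyy the most abundant, summed there to 22090 to 49540 and 32490 to 58780 CPM. The β identity genes summed to 1145 to 4940 and 1112 to 4018 CPM in α libraries. The 20 mitosis markers, of which Top2a was among the most abundant pair in every condition, summed to 63.4 to 158 CPM in control β and 162 to 528 CPM in DOX β libraries, and to 27.2 to 83.6 CPM over all α libraries.

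In β cells, 35 of the 38 replication genes were higher in DOX mice than in controls and 1, Gins2, was lower (edgeR quasi-likelihood test over 15188 genes, Benjamini-Hochberg adjusted p under 0.05). Many other genes passed the same test: 46.9% of all genes tested, 23.8% higher and 23.1% lower. The median log2 fold change of the 38 was 0.77 compared with -0.0071 for all genes tested, and 14 of the 38 were higher by 2-fold or more, as were 8.63% of all genes. Rfc5 (-0.12 ± 0.075, adjusted p = 0.195) and Dut (0.080 ± 0.083, adjusted p = 0.45) did not pass the test. For 8 of the 38, Mcm3, Mcm5, Cdt1, Cdc45, Fen1, Rrm1, Rrm2 and E2f2, every DOX library lay above every control library, an order seen for 1.36% of all genes, and none had every DOX library below, as 1.12% of all genes had. In bulk RNA of sorted cells, more cells with a transcript and more transcript per cell cannot be told apart.

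**Figure D1:**
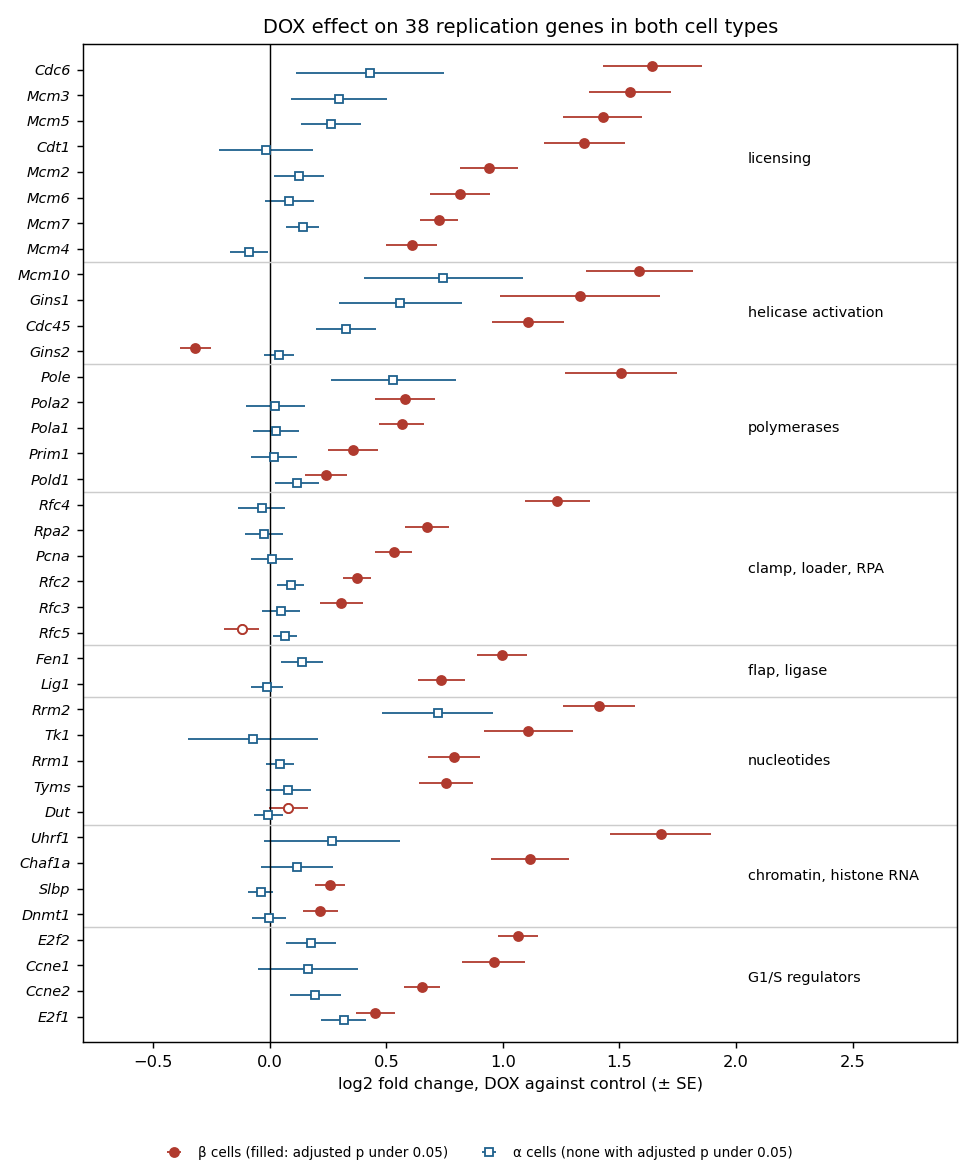
Log2 fold change of DOX against control for the 38 replication genes (x axis, bars are SE), ordered by role and by size, in β cells (red circles) and α cells (blue squares); open symbols did not pass an adjusted p of 0.05. In β cells 35 genes lie to the right of 0 with filled symbols and Gins2 to the left, and in α cells no symbol is filled.

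All 8 licensing genes were higher in DOX β cells, with log2 fold changes of 0.61 to 1.64 and a median of 1.15. Mcm3 (chr1:20802968-20820312, GRCm38), a subunit of the MCM ring, had a lowest, median and highest value of 3.35, 4.87 and 8.89 CPM in control β libraries and of 10.4, 15 and 24.2 CPM in DOX β libraries. The groups did not overlap, and Mcm3 was higher by 1.55 ± 0.17 on the log2 scale (SE, adjusted p = 8.14e-07). Mcm5, the ring subunit whose promoter is printed above (gene at chr8:75109569-75128439), went from 4.95, 8.24 and 12.4 CPM to 12.95, 24.4 and 34.7 CPM, again without overlap (1.43 ± 0.17, adjusted p = 1.4e-06). Mcm7, which shares the ring with them, had 8.86, 12.1 and 14.6 CPM in controls and 14.6, 18.9 and 28.1 CPM in DOX libraries. Its increase was smaller but as regular, with 11 of 12 DOX libraries above all controls (0.73 ± 0.082, adjusted p = 7.82e-07). The other ring subunits had smaller values than Mcm3 and Mcm5: Mcm2 by 0.94, Mcm6 by 0.82 and Mcm4 by 0.61, with no test between subunits. Of the loading factors, Cdc6 showed 1.64 ± 0.21 (adjusted p = 3.49e-06) and Cdt1 1.35 ± 0.17 (adjusted p = 3.49e-06), both from controls with a median of 2.08 and 2.27 CPM.

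Helicase activation genes split: 3 were higher and Gins2 was lower. Cdc45, which joins MCM2-7 in the active helicase, had 2.61, 3.35 and 5.02 CPM (lowest, median, highest) in control β and 5.84, 7.10 and 11.8 CPM in DOX β libraries. The groups were separate, and the difference was 1.11 ± 0.15 (adjusted p = 8.61e-06). Mcm10, a scaffold of helicase start-up, was among the scarcest members with 0.560, 1.11 and 3.28 CPM in controls and 2.44, 3.59 and 5.81 CPM after DOX. A single control library, ZT20 replicate 1, overlapped the DOX range (1.58 ± 0.23, adjusted p = 1.35e-05). Gins1, a GINS subunit, lay at a median of 0.275 CPM in controls and 0.962 CPM in DOX libraries (1.33 ± 0.34, adjusted p = 0.00319). Gins2, another subunit of that complex, went the other way, from 64.3, 76.2 and 109 CPM to 45.9, 61.3 and 74.6 CPM (-0.32 ± 0.065, adjusted p = 0.000459). By GENCODE exons, used here for all overlaps, 67.3% of its exon bases are shared with Gse1 on the opposite strand. Gse1 fell by 0.40 ± 0.085 (adjusted p = 0.000673). The library kit does not mark strand, so reads from the shared bases cannot be assigned to Gins2 or Gse1 by strand. How the counting treated such reads is not given in the sources used here.

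All 5 polymerase genes were higher, with a median of 0.57. Pole, the catalytic subunit of the leading-strand polymerase ε, had 1.09, 2.00 and 4.62 CPM in controls and 3.49, 6.22 and 10.95 CPM after DOX (1.51 ± 0.24, adjusted p = 4.01e-05). Pola1, the catalytic subunit of the priming polymerase α, had 5.90, 7.36 and 10.0 CPM against 9.26, 10.6 and 14.5 CPM (0.57 ± 0.097, adjusted p = 8.41e-05). Pola2, its accessory subunit, had 3.61, 4.88 and 6.93 CPM against 4.46, 7.29 and 10.8 CPM, with a difference of nearly the same size (0.58 ± 0.13, adjusted p = 0.000886). The groups of these 3 genes overlapped, with 10, 8 and 7 of the 12 DOX libraries above all controls. Prim1, the primase (0.36 ± 0.11, adjusted p = 0.0087), and Pold1, catalytic subunit of the lagging-strand polymerase δ (0.24 ± 0.090, adjusted p = 0.0326), had the smallest increases of the group. Pold1 no longer passed the test when any of 6 libraries was left out (ZT0 DOX replicate 2, ZT12 control replicate 1, ZT20 control replicate 2, ZT4 control replicate 1, ZT8 control replicate 1 or ZT8 DOX replicate 1; adjusted p 0.0541 to 0.0635).

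Among the clamp, its loader and RPA, 5 of 6 were higher, with a median of 0.45. Rfc4, a small subunit of the clamp loader, had 1.30, 2.06 and 3.28 CPM in control β and 3.21, 5.04 and 6.26 CPM in DOX β libraries (1.23 ± 0.14, adjusted p = 8.27e-07). Just 1 DOX library lay within the control range. Rpa2, which coats single-stranded DNA, had 6.71, 7.34 and 9.44 CPM against 8.55, 11.7 and 15.9 CPM (0.67 ± 0.094, adjusted p = 8.97e-06). Pcna, the sliding clamp, had 17.9, 22.4 and 28.8 CPM against 22.7, 30.7 and 44.8 CPM, with 6 of 12 DOX libraries above all controls (0.53 ± 0.081, adjusted p = 2.33e-05). The loader subunits differed among themselves: Rfc2 showed 0.37, Rfc3 0.31 and Rfc5 -0.12, the last not past the test. Rfc5 shares 10.7% of its exon bases with Wsb2 on the opposite strand, which is more abundant and fell by 0.27 ± 0.070 (adjusted p = 0.00338), and Rfc4 shares 12.7% with Eif4a2, which fell by 0.40 ± 0.063 (adjusted p = 3.74e-05).

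Both genes of lagging-strand completion were higher. Fen1, the flap endonuclease, had 9.93, 14.04 and 19.5 CPM in controls and 20.5, 25.1 and 39.7 CPM in DOX libraries, without overlap (0.995 ± 0.11, adjusted p = 5.21e-07). Of its exon bases, 78.8% lie in an antisense gene, Gm10143, which gave nearly the same change (0.996 ± 0.11, adjusted p = 5.62e-07). Lig1, the ligase that seals the fragments, had 7.02, 8.38 and 11.1 CPM against 10.7, 14.3 and 19.9 CPM (0.74 ± 0.10, adjusted p = 8.15e-06).

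Of the 5 nucleotide genes, 4 were higher. Rrm2, the S phase subunit of ribonucleotide reductase, had 4.67, 7.56 and 13.2 CPM in controls and 14.5, 18.8 and 30.8 CPM after DOX (1.41 ± 0.15, adjusted p = 5.46e-07). Its partner Rrm1, the large subunit, had 17.9, 25.9 and 31.9 CPM against 32.0, 40.6 and 61.7 CPM (0.79 ± 0.11, adjusted p = 9.65e-06). Neither gene overlapped between the groups, although the lowest DOX library of Rrm1 was only just above the highest control. Tyms, thymidylate synthase, had 4.28, 5.62 and 8.46 CPM against 6.30, 9.03 and 13.4 CPM (0.76 ± 0.12, adjusted p = 2.4e-05). Tk1, thymidine kinase, went from a median of 1.96 to 4.55 CPM (1.11 ± 0.19, adjusted p = 9.07e-05). Dut, the dUTPase, had 20.5, 22.9 and 30.9 CPM against 20.1, 24.7 and 37.98 CPM, and 7 of 12 DOX libraries lay above the control median.

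All 4 genes of chromatin and histone RNA were higher. Uhrf1, which brings DNA methylation to newly copied strands, had the largest log2 fold change of the 38 (1.68 ± 0.22, adjusted p = 3.79e-06), from 1.42, 2.55 and 5.94 CPM to 5.67, 8.87 and 16.4 CPM. Chaf1a, the large subunit of the histone chaperone CAF-1, had 1.64, 2.85 and 5.34 CPM against 3.41, 6.09 and 9.86 CPM (1.12 ± 0.17, adjusted p = 1.95e-05). In the GENCODE release used for overlaps, 52.5% of its 8854 exon bases lie in Ubxn6 on the opposite strand. The counted Chaf1a has another span and a length of 3308 bases, so the share in these counts is not known. Ubxn6 fell by 0.26 ± 0.059 (adjusted p = 0.00101). Slbp, which binds the stem-loop of histone mRNAs, moved less, from 10.2, 12.4 and 14.3 CPM to 12.1, 14.8 and 17.98 CPM (0.26 ± 0.065, adjusted p = 0.00288). Dnmt1, the maintenance methyltransferase that Uhrf1 recruits, showed 0.22 ± 0.077 (adjusted p = 0.0248), a call that ended when ZT4 control replicate 1, ZT8 control replicate 1 or ZT8 DOX replicate 1 was left out (adjusted p 0.0502 to 0.0529). In the later run alone Dnmt1 was at 0.090 (adjusted p = 0.545) and Slbp at 0.14 (adjusted p = 0.269).

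The 4 regulators of S phase entry were higher as well. E2f2, an activator E2F, had the lowest p of the 38: its values were 6.03, 8.61 and 11.9 CPM in control β and 14.7, 17.0 and 24.6 CPM in DOX β libraries (1.06 ± 0.087, adjusted p = 1.54e-08). Every DOX library was above every control. Ccne1 (0.96 ± 0.13, adjusted p = 9.09e-06) and Ccne2 (0.65 ± 0.076, adjusted p = 1.07e-06), the E cyclins that activate CDK2, went from 2.60, 3.13 and 4.86 CPM to 3.86, 6.20 and 10.1 CPM and from 6.09, 7.95 and 10.1 CPM to 9.56, 11.6 and 16.6 CPM. E2f1, the founding activator, was more abundant and moved less, with medians of 23.5 and 32.4 CPM (0.45 ± 0.083, adjusted p = 0.000151).

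**Figure D2:**
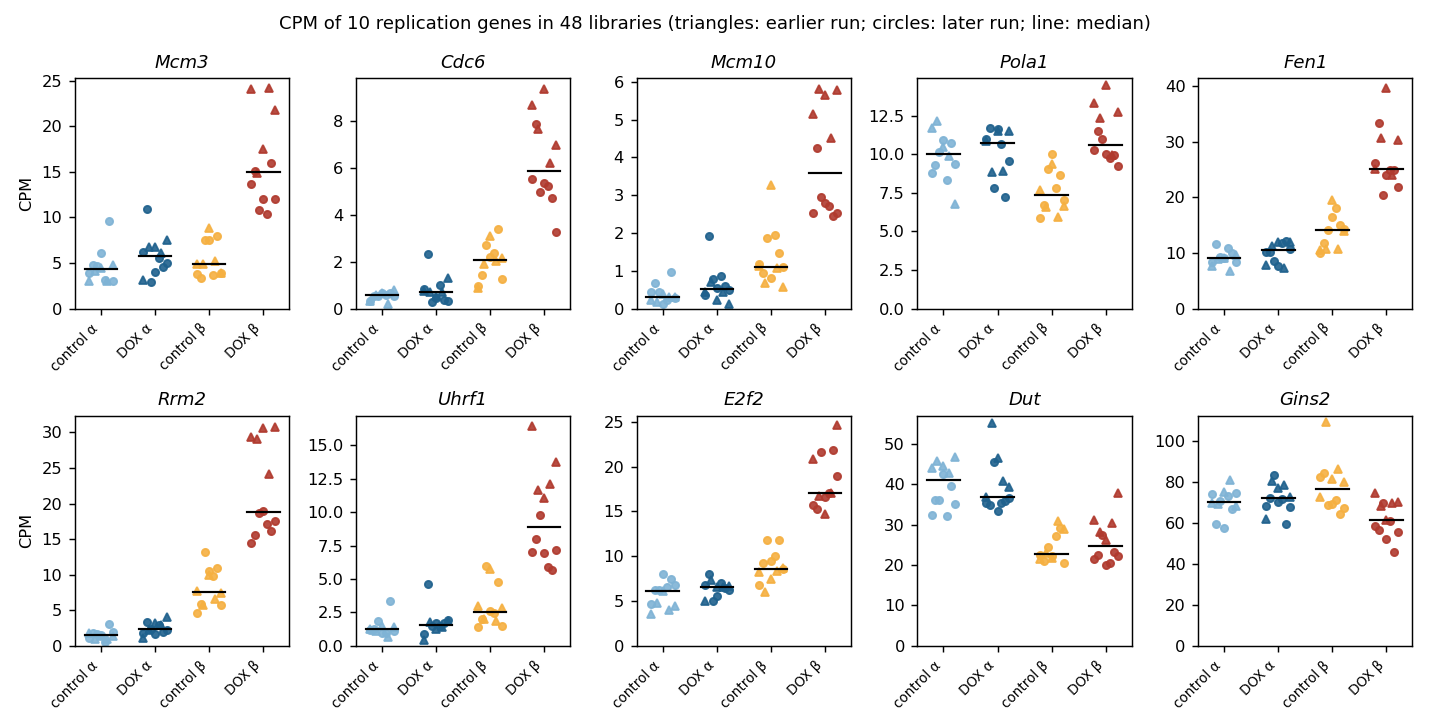
CPM of 10 replication genes (y axes, each from 0) in the 12 libraries of each condition, with the median as a line. Mcm3, Fen1, Rrm2 and E2f2 have all DOX β libraries above all control β libraries, whereas Dut overlaps and Gins2 lies lower after DOX.

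The members that changed most were scarce in control β cells. Per kilobase of the gene length in the files, the 14 members higher by at least 2-fold had a median level of 0.793 CPM per kb in control β cells (0.144 to 2.73), compared with 2.46 CPM per kb (0.835 to 18.6) for the other 24. The scarcest were Mcm10 at 0.144, Pole at 0.180 and Gins1 at 0.182 CPM per kb, and the most abundant were Gins2 at 18.6, Dut at 9.48 and Pcna at 9.34 CPM per kb. A fold change is set against the level in controls, so this is a description and was given no test. In the 25 members that share no exon bases with another gene, 24 were higher and 0 lower, with a median of 0.79. Those with E2F letters in their window had a median log2 fold change of 0.82 (13 of 13 higher) and those without 0.79 (17 of 19 higher), with no test between them.

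Of 62 further genes of the same processes, 43 were higher in DOX β cells, 5 lower and 14 not past the test, with a median log2 fold change of 0.48. Of all genes tested, 23.8% were higher and 23.1% lower. In the origin list 11 of 19 were higher and 2 lower, among them Wdhd1 (0.70 ± 0.11), a replisome scaffold, and Mcm8 (0.90 ± 0.15), an MCM relative in repair, against Orc3 (-0.16 ± 0.049) and Orc4 (-0.18 ± 0.056), subunits of the origin recognition complex. In the fork list 12 of 18 were higher and 1 lower: Timeless (1.27 ± 0.16), of the fork protection complex, and Clspn (1.74 ± 0.24), an adaptor of the replication checkpoint, against Pole3 (-0.25 ± 0.089), a histone-fold subunit of polymerase ε. The nucleotide and chromatin list had 9 of 13 higher, such as Asf1b (1.60 ± 0.21), a histone chaperone. In that list Rrm2b fell by 0.78 ± 0.085 (adjusted p = 5.36e-07), while its paralog Rrm2 among the members rose; Rrm2b is the p53-induced reductase subunit of cells outside S phase. In the G1/S list 11 of 12 were higher, led by E2f8 (2.18 ± 0.29), an E2F repressor of late S phase, and Ccna2 (1.22 ± 0.17), cyclin A2, and Rb1, the retinoblastoma protein that restrains E2F, was lower (-0.27 ± 0.068, adjusted p = 0.00246). All 20 mitosis markers were higher too, with a median of 1.64, above the 0.77 of the replication genes.

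Markers of macrophages and dendritic cells rose in the same comparison, in 15 of 15 genes tested and with a median log2 fold change of 2.22. Summed over these markers, the most abundant being Cd74 and C1qa, control β libraries held 52.7 to 377 CPM and DOX β libraries 128 to 1692 CPM, and none of the markers was at 0 in all libraries of a group. With the mean log2 CPM of these markers as a covariate, 27 of the 38 replication genes were higher and 1 lower, with a median of 0.73, and Mcm6, Prim1, Tk1, Pola2, Slbp, Rfc3, Pold1 and Dnmt1 no longer passed the test. Of these 8, Mcm6 went to 0.48, Tk1 to 0.74, Pola2 to 0.43 and Pold1 to 0.19, whereas Prim1 (0.42), Rfc3 (0.35), Slbp (0.25) and Dnmt1 (0.19) had values near or above those without the covariate. The DOX β library with the fewest such markers, ZT0 replicate 2 at 128 CPM, lay among the controls in that measure and had a mean of 3.83 log2 CPM over the 38 genes, above the 2.67 to 3.26 of all 12 control β libraries. DOX β library ZT16 replicate 1, at 284 CPM of markers, had 3.84. The library with the most markers, ZT16 replicate 2 at 1692 CPM, had 3.42. The control library with the most markers, ZT20 replicate 1 at 377 CPM, also had the highest control mean, 3.26. With the covariate, 3735 of the 15188 genes tested were called in either direction, against 7122 without it. The counts of genes called without the covariate, in the macrophage list and the next lists, stand beside 23.8% higher and 23.1% lower of all genes tested. The sum of α identity genes was 708 to 1321 CPM in control and 1731 to 3960 CPM in DOX β libraries, without overlap, with 4 of 6 genes tested higher and 1 lower. Markers of δ and PP cells were higher in 5 of 5 genes tested (median sum 617.8 against 1040 CPM), of stellate cells and fibroblasts in 4 of 7 (9.47 against 29.2 CPM, up to 395 CPM) and of ducts in 3 of 6 (392 against 502 CPM). Acinar markers were called in 0 of 11 genes (also 0 at an unadjusted p under 0.05; up to 5285 CPM in 1 DOX β library) and endothelial markers in 1 of 4. Lymphocyte markers summed to 5.85 to 25.5 CPM in control and 3.32 to 13.8 CPM in DOX β libraries. The part of these cell types in the result was not tested.

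**Figure D3:**
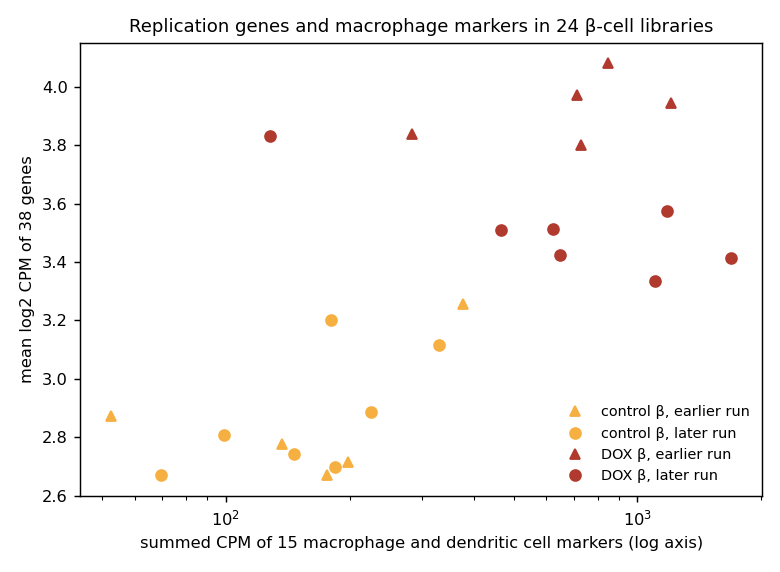
Mean log2 CPM of the 38 replication genes (y axis) against the summed CPM of 15 macrophage and dendritic cell markers (x axis, log scale) in 24 β libraries, with triangles for the earlier and circles for the later run. All DOX libraries lie above all controls on the y axis. DOX libraries with marker sums within the control range, at 128 and 284 CPM, had means of 3.83 and 3.84 log2 CPM. The control library with the most markers, at 377 CPM, had the highest control mean, 3.26. The part of these cells in the result was not tested.

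In α cells, 0 of the 38 genes passed the test between DOX and control, and 0.127% of the 14932 genes tested did. At an unadjusted p under 0.05 stood 5 members, against 7.86% of all genes, and DESeq2 also called 0 of the 38. The median log2 fold change was 0.087, with 29 members above 0 and 9 below. E2f1 had the lowest p, with 6.37, 7.64 and 13.5 CPM in control α and 8.58, 11.1 and 12.6 CPM in DOX α libraries (0.32 ± 0.095, adjusted p = 0.255). Rrm2 followed, with 0.586, 1.49 and 3.06 CPM against 1.08, 2.31 and 4.02 CPM (0.72 ± 0.24, adjusted p = 0.336). Cdc45 (0.33 ± 0.13), Mcm10 (0.74 ± 0.34) and Gins1 (0.56 ± 0.26) were the other 3 at an unadjusted p under 0.05. For all 38 genes the α groups overlapped, as for all genes tested (0% with separate groups). One DOX α library, ZT0 replicate 2, had the highest mean of the 38 genes among α libraries, 3.28 log2 CPM, against 2.43 to 2.83 in the other 11.

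The DOX effect itself was larger in β than in α cells for 27 of the 38 genes and lower for 1, Gins2, in the fit over all 48 libraries (12.7% of 16207 genes were higher and 12.8% lower, 25.5% in all). The median difference of log2 fold changes was 0.71. Rfc4 had the lowest p (1.25 ± 0.17, adjusted p = 6.2e-07), with a log2 fold change of -0.035 in α cells and 1.23 in β cells. Uhrf1 (1.39 ± 0.36, adjusted p = 0.00436) and Cdt1 (1.35 ± 0.27, adjusted p = 0.00024) had the largest differences, and Mcm3 (1.24 ± 0.28, adjusted p = 0.00103) and Cdc6 (1.204 ± 0.38, adjusted p = 0.0161) came just after Rfc4. Pole (0.98 ± 0.36, adjusted p = 0.0444) lost its call without any one of 24 of the 48 libraries (adjusted p 0.0501 to 0.0906). The difference did not pass the test for Gins1, Mcm10, Prim1, Pold1, Rfc3, Rfc5, Rrm2, Dut, Dnmt1 and E2f1. For E2f1 it was 0.12 ± 0.13 (adjusted p = 0.511) and for Rrm2 0.70 ± 0.28 (adjusted p = 0.0612, and 0.0197 to 0.0485 without any one of 11 libraries), both genes with α values above 0. In the earlier run alone 24 of the 38 were higher and in the later run alone 10, while the genes called overall went from 4126 to 2139 and 1243.

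In control mice 15 of the 38 genes were higher in β than in α cells and 12 were lower, beside 34.2% and 37.3% of all 14945 genes (71.4% in all), with a median log2 difference of 0.12. Rrm2 stood out with 7.56 CPM in β against 1.49 CPM in α cells (medians; 2.41 ± 0.20, adjusted p = 5.67e-10), and Cdc6 (1.87 ± 0.23), Mcm10 (1.77 ± 0.27), Ccne1 (1.53 ± 0.15) and E2f1 (1.45 ± 0.12) were also higher in β cells. Lower in β cells were Rfc4 (-0.83 ± 0.14), Dut (-0.72 ± 0.071), Rfc3 (-0.63 ± 0.079) and Lig1 (-0.62 ± 0.079). In that comparison all 4 regulators of S phase entry were higher in β cells, of which Ccne2 (0.22 ± 0.091, adjusted p = 0.0354) lost its call without any one of 9 libraries (adjusted p up to 0.0739), without the count filter (0.0529) and in the later run alone (0.12, adjusted p = 0.338), while the clamp and loader genes had 3 lower and 1 higher. In DOX mice 28 were higher in β cells and 5 lower (35.6% and 35.7% of all 15370 genes, 71.2% in all), with a median of 0.67. Cdc6 then differed by 3.08 ± 0.24 and Rrm2 by 3.11 ± 0.16, and Rfc4 was higher in β cells (0.46 ± 0.11, adjusted p = 0.000972) although it was lower there in controls. Gins2, Rfc3, Dut, Slbp and Dnmt1 were the 5 lower ones. Slbp (-0.16 ± 0.061, adjusted p = 0.0272) lost this call without the count filter (adjusted p = 0.0813), without the run term (0.0602) and without any one of 3 libraries (0.0521 to 0.054), and in the earlier run alone Slbp was at -0.036 and Dnmt1 at -0.049. These comparisons share libraries with those of DOX against control and are not independent of them. With same-numbered α and β libraries as pairs (replicate block), 2 more genes passed in DOX mice, Rpa2 (0.19, adjusted p = 0.0446) and Pold1 (-0.20, adjusted p = 0.0339). In control mice the block added Mcm6, lower in β cells (-0.22, adjusted p = 0.0361).

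By time of day, over the 38 genes, the median log2 fold change was 0.95 at ZT0, 0.69 at ZT4, 1.05 at ZT8, 0.66 at ZT12, 0.80 at ZT16 and 0.69 at ZT20, with 35 to 37 of the 38 above 0 at each time. With 2 libraries against 2 at a time, 17, 6, 8, 1, 7 and 1 members were higher in that order, against 7.95%, 8.72%, 1.96%, 0.645%, 4.55% and 2.73% of all genes called in either direction. At ZT0, Gins2 was lower (-0.52 ± 0.14, adjusted p = 0.037). All ZT0 libraries belong to the later run, whereas the other times mix both runs, so ZT0 differs from them in run as well as in time. E2f2 was the only member past the test at all 6 times, from 0.91 at ZT20 to 1.34 at ZT8. Its 2 libraries were at 7.42 and 10.0 CPM in control and 14.7 and 17.1 CPM in DOX mice at ZT20, and at 8.69 and 8.53 CPM against 24.6 and 18.9 CPM at ZT8. Cdc6 had the largest value at any time, 2.49 ± 0.52 at ZT0 (0.974 and 1.43 CPM against 5.54 and 7.87 CPM; adjusted p = 0.0121). The test of a difference between times called 0 of the 38, and 0 genes overall (0%, with 2.59% of 15188 genes at an unadjusted p under 0.05).

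**Figure D4:**
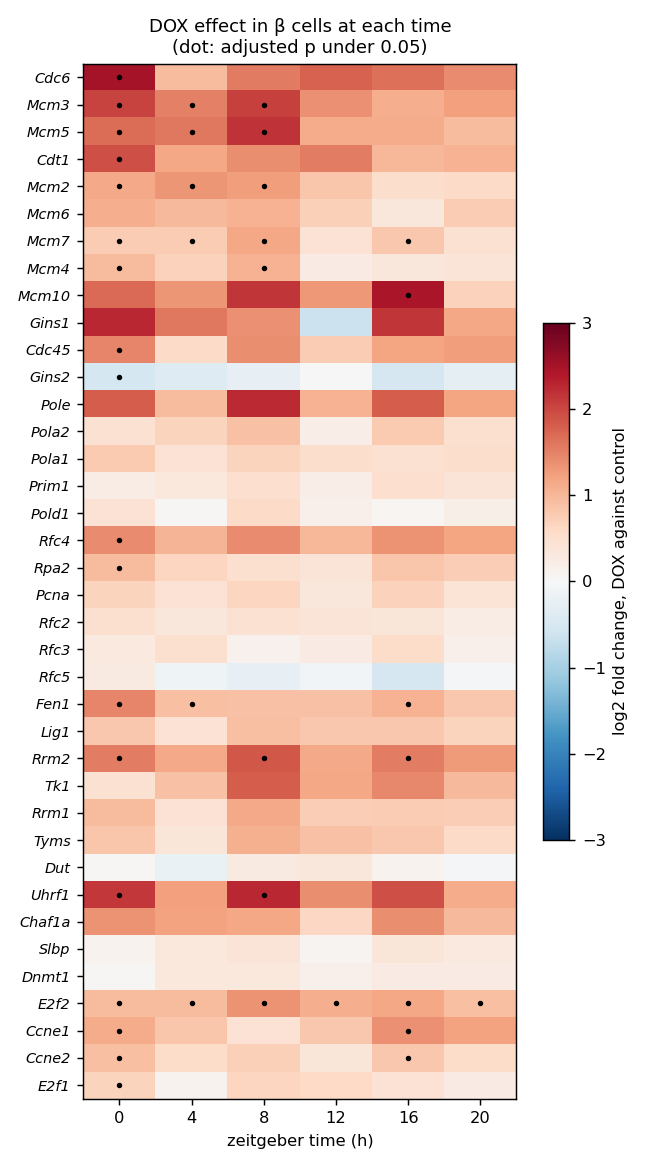
Log2 fold change of DOX against control in β cells (colour) for the 38 replication genes (rows, by role) at 6 zeitgeber times (columns), with a dot where the adjusted p was under 0.05. Red prevails at each time, and the row of E2f2 carries a dot in all 6 columns.

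Daily rhythms, fitted as a 24 h cosine, passed the test for few members. In DOX β cells 4 of the 38 did (11.6% of all genes): Mcm2, with an amplitude of 0.37 ± 0.073 log2 units and a peak at ZT 3.51 ± 0.75 h, Mcm5 (0.43 ± 0.099, peak at 3.63 ± 0.87 h), Rfc5 (0.27 ± 0.064, peak at 23.7 ± 0.90 h) and E2f2 (0.27 ± 0.066, peak at 9.03 ± 0.94 h). Mcm2 was at 42.8 and 50.4 CPM in the DOX β libraries of ZT4 and at 27.7 and 24.9 CPM in those of ZT16. In DOX α cells 3 of the 36 tested passed (2.82%), all of them MCM ring subunits: Mcm2 (0.57 ± 0.079, peak at 23.9 ± 0.50 h), Mcm5 (0.66 ± 0.11, peak at 23.4 ± 0.60 h) and Mcm6 (0.42 ± 0.073, peak at 22.5 ± 0.65 h). The DOX α libraries of Mcm5 held 8.92 and 14.4 CPM at ZT0 and 5.07 and 4.19 CPM at ZT12. In control α cells 1 of 35 passed, Rfc2 (0.27 ± 0.053, peak at 20.3 ± 0.76 h; 4.49% of all genes), and in control β cells 0 of 37 (2.17%), where 2 members and 20.6% of all genes had an unadjusted p under 0.05. The difference of rhythm between DOX and control β cells called 0 members and 0% of all genes, with 1 member, Mcm2, and 4.66% of all genes at an unadjusted p under 0.05. With any 1 of the 12 DOX β libraries left out, 0 to 3 members were called in DOX β cells, beside 112 to 2317 of all genes (1576 with all libraries), and 0 members without ZT8 replicate 1, ZT12 replicate 1, ZT16 replicate 1, ZT16 replicate 2 or ZT20 replicate 1. In DOX α cells the count fell to 1 without ZT8 replicate 2, ZT12 replicate 2 or ZT20 replicate 1. All genes called then ranged from 41 to 560 in DOX α (375 with all libraries) and from 20 to 893 in control β cells (288).

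**Figure D5:**
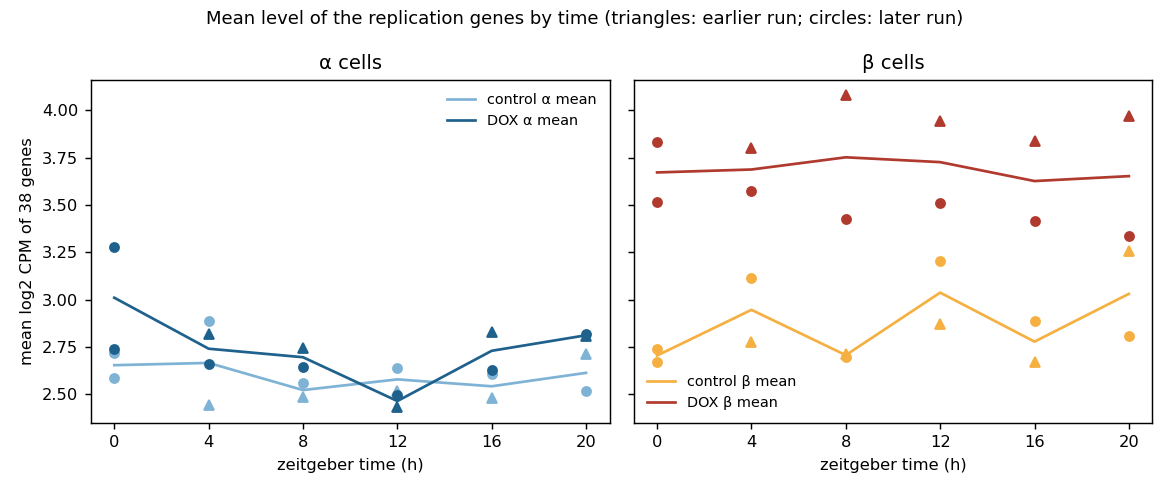
Mean log2 CPM of the 38 replication genes in each library (y axis) against zeitgeber time (x axis, h), for α cells on the left and β cells on the right, with lines through the means of 2 libraries. All 12 DOX β libraries, at 3.34 to 4.08, lie above all control β libraries, at 2.67 to 3.26, and the triangles of the earlier run lie above the circles of the same time among DOX β libraries.

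The log2 fold changes were lower in the later sequencing run for most members, but no member passed the test of that difference. The members were measured in the same libraries, so their signs are not independent of each other. In DOX β cells the 5 libraries of the earlier run had mean levels of 3.8 to 4.08 log2 CPM over the 38 genes and the 7 of the later run 3.34 to 3.83, while control β libraries had 2.67 to 3.26 in both runs together. In the earlier run alone, 33 of the 38 were higher and 0 lower in DOX β cells (median 1.08), and in the later run alone 29 were higher and 1 lower (median 0.63). Over all genes, 4638 were called in either direction in the earlier run alone and 3747 in the later, against 7122 with both. Gins1, Rfc3, Pold1 and Gins2 lost their call in the earlier run alone, where Dut passed (0.32, adjusted p = 0.0284). Prim1, Pola2, Slbp, Rfc3, Pold1 and Dnmt1 lost theirs in the later run alone. Rrm2 showed 1.98 in the earlier and 1.06 in the later run. The test of that difference called 0 of the 38 (0.0461% of 15188 genes); the difference, later minus earlier, was below 0 for 37 of the 38, with a median of -0.39, and 15 had an unadjusted p under 0.05, against 6.51% of all genes. Rrm2 had the lowest p (-0.93 ± 0.23, adjusted p = 0.232). In the same DOX β libraries the median sum of stellate and fibroblast markers was 53.6 CPM in the earlier and 7.77 CPM in the later run. For α identity genes it was 2974 and 2391 CPM, for mitosis markers 442 and 212 CPM, and for duct markers 534 and 428 CPM. Macrophage and dendritic cell markers had 728 and 649.5 CPM, endothelial markers 9.66 and 8.85 CPM, and lymphocyte markers 9.355 and 6.68 CPM. Markers of δ and PP cells (1039 and 1160 CPM), acinar markers (10.8 and 19.6 CPM) and β identity genes (296700 and 343000 CPM) were higher in the later run. The part of these lists in the result was not tested. The run also separates replicate 1 from replicate 2 at 5 of the 6 times, so batches of animals and sequencing cannot be told apart.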

How the data were processed

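Polyadenylated RNA of sorted α and β cells was sequenced in 48 libraries. The authors deposited estimated counts per gene (expected counts). Per the submitters' processing notes, bcl2fastq, STAR and build GRCm38 were used; the counting program is not given in the sources used here, and 99.2 to 99.8% of counts up to 20 are even. Per the labels, the kit was TruSeq v2, which does not mark strand. Depth was 16.1 to 69.95 M (mega-counts) per library, and libraries of a group differed beyond counting noise.

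Estimated counts were rounded, filtered (filterByExpr, minimum count 10, minimum total 15), scaled by TMM and tested with edgeR 4.0.16 (R 4.3.3, limma 3.58.1) by the quasi-likelihood test, with time and run as terms and Benjamini-Hochberg adjustment over all genes (threshold 0.05). Rhythms used a 24 h cosine and sine with run. Log2 CPM used a prior count of 2. DESeq2 1.42.0, other scaling, no filter, halved counts, no run term, each run alone, a replicate block, a macrophage marker covariate and leaving out each library were alternatives. On simulated counts, DOX in β cells recovered 83% of 1.5-fold and 93% of 2-fold changes (15069 genes). For DOX in α cells it was 87% and 94%, and for the difference, β minus α, 75% and 93%. Rhythms in DOX β cells were recovered in 50% at an amplitude of 0.5 log2 units and in 89% at 1. False calls numbered 1, 12, 8 and 5 in that order. Changes were planted only in genes above a minimum mean count, so scarce members such as Gins1 were not covered.

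Full values are given for the 3 members of each role with the lowest p in β cells and for members that fell. The members and lists were chosen with earlier results of these data known. Same-numbered α and β libraries of DOX mice deviated together (r 0.176 to 0.482 at the 6 times), and those of control mice had an r of 0.040 to 0.395. These values hold the difference between runs. With the mean run difference removed, r was 0.107 to 0.42 in DOX mice and 0.073 to 0.34 in control mice.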

Additional observations from a re-analysis of the deposited data

Results flagged for a closer look

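The DOX effect differed between β and α cells by the test of the difference itself (edgeR quasi-likelihood test over 48 libraries, adjusted p under 0.05) for 28 of the 38 replication genes, beside 25.5% of all genes. Values are differences of log2 fold changes, β minus α. Among the origin licensing genes they were 0.81 for Mcm2, 1.24 for Mcm3, 0.68 for Mcm4, 1.16 for Mcm5, 0.72 for Mcm6, 0.57 for Mcm7, 1.204 for Cdc6 and 1.35 for Cdt1. For the helicase activation genes they were 0.77 for Cdc45 and -0.37 for Gins2. Of the polymerase genes they were 0.52 for Pola1, 0.54 for Pola2 and 0.98 for Pole. In the clamp, loader and RPA genes they were 0.51 for Pcna, 0.27 for Rfc2, 1.25 for Rfc4 and 0.69 for Rpa2. Among the genes of lagging-strand completion they were 0.85 for Fen1 and 0.73 for Lig1. For the nucleotide genes they were 0.74 for Rrm1, 0.66 for Tyms and 1.16 for Tk1. Of the chromatin and histone RNA genes they were 0.28 for Slbp, 1.39 for Uhrf1 and 0.99 for Chaf1a. In the regulators of S phase entry they were 0.88 for E2f2, 0.78 for Ccne1 and 0.44 for Ccne2. Among these 28 genes Gins2 was the 1 with a value below 0, and its exons overlap Gse1 on the opposite strand. With 2 libraries in each group at a time, no library was tested for standing apart from its group.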

How the results depend on the processing

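No called value of DOX against control, of β minus α or of β against α changed sign under any alternative run. Values not called did: in DOX against control, 8 members in α and 1 in β cells (Dut, 0.080 to -0.072) in the later run alone, and 6 in α cells in the earlier run alone. In α cells so did 5 with the macrophage covariate, 2 each with DESeq2, other scaling and the replicate block, and 1 without the run term. Leaving out 1 library changed the sign of 65 of 912 values there. Some values not called in β minus α and in β against α changed sign as well. Of the 35 replication genes higher in DOX β cells 26 were called in every other setting that did not leave out a library. The replicate block changed no call of the 38 in DOX against control in β cells (35 higher, 1 lower) or α cells, nor in their difference. In control mice, same-numbered α and β libraries had an r of 0.040 to 0.395 at the 6 times, and of 0.073 to 0.34 with the mean run difference removed. For β against α cells in these mice, the replicate block gave 13 members lower, with Mcm6 added (-0.22, adjusted p = 0.0361). In the earlier run alone, members lower numbered 0 in β cells, 0 in the β minus α difference and 1 for β against α cells in DOX mice; in the later run alone, 10 were higher in the difference. Rhythm calls fell to 0 without the run term in control α and in DOX β cells, and to 1 without the count filter in DOX β cells. The promoter letters GGCGGG were in 26 (37.9% of all genes) and GCGGGA in 23 (22%) of the 32 genes with windows, against 13 (2.6%) for the E2F letters. Leaving out 1 library gave 33 to 35 members higher in β cells, 26 to 29 higher and 1 to 2 lower in the difference (2 without ZT0 control β replicate 2 or ZT0 DOX β replicate 1), and rhythm calls of 0 to 2 in control α, 1 to 3 in DOX α and 0 to 3 in DOX β cells. Over all genes, DOX in β cells called 7122, and 4638 in the earlier run, 3747 in the later run and 3735 with the macrophage covariate. DOX in α cells called 19, and 56 without filter, 125 by DESeq2, 12 without run term, 132 in the earlier and 0 in the later run, 7 with the replicate block and 0 with the covariate. The difference called 4126, and 2139 and 1243 in the earlier and later run. The effect by run called 7, and 33 without filter. Rhythms called 600 in control α (344 without run term), 375 in DOX α (166) and 1576 in DOX β cells (328, and 831 without filter); their difference called 0, and 1 without filter. The cause of these shifts was not tested. With counts halved, 35 members were higher in β cells, and Gins1, at a median of 0.275 CPM in control β cells, still passed.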
